A study of Homo sapiens with 6 samples.

Results

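EPCAM and 8 genes that build or mark an epithelium were followed from human embryonic stem cells through early mesoderm to smooth muscle cells. The genes were EPCAM, GRHL1, GRHL2, OVOL1, ESRP2, RAB25, ST14, SPINT1 and SPINT2, that is 9 of the 18417 genes tested. They were chosen by name, with earlier results of these data known. Each was read from the probe set annotated to that gene alone that had the highest mean over the 6 arrays. All 9 were measured, and no filter on low signal was applied.

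All samples came from the established embryonic stem cell line WA09 (human), for which the labels give no engineered allele. The hESC group was undifferentiated cells in defined medium. The INM group was nascent mesoderm positive for ISL1 at day 4, and the SMC group was smooth muscle cells at day 21. Both derivatives were made with 25 ng/ml of Wnt3a and 50 ng/ml of BMP4. Each group had 2 arrays, so every group rests on 1 line and 2 samples. The labels do not say whether the samples of a group were grown as separate cultures. The p-values therefore describe the spread among these samples alone, and that spread may be technical.

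Pluripotent stem cells grow as a tight epithelial sheet held together by E-cadherin, and mesoderm arises from such a sheet by an epithelial-to-mesenchymal transition. EPCAM is a surface glycoprotein of epithelia and stem cells. The Grainyhead-like (GRHL) and OVOL transcription factors and the ESRP splicing factors keep the epithelial programme active, whereas SNAI and ZEB factors repress it by binding E-boxes in the promoters of epithelial genes. Matriptase, encoded by ST14, is a membrane protease of epithelia, and SPINT1 and SPINT2 encode the Kunitz inhibitors that restrain it.

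RefSeq promoter windows (build GRCh38.p14) were examined for 3 of the 9 genes only, RAB25, GRHL1 and SPINT1. Promoters of the other genes were not examined, so their motifs are not known here. The windows of RAB25 and of the second SPINT1 start are shown because they hold the E-box letters CACCTG, or CAGGTG on the other strand, that SNAI and ZEB factors are known to recognise. The capitals mark those letters, and each sequence ends at the base before the annotated start.
RAB25, chr1:156060910-156061159, plus strand: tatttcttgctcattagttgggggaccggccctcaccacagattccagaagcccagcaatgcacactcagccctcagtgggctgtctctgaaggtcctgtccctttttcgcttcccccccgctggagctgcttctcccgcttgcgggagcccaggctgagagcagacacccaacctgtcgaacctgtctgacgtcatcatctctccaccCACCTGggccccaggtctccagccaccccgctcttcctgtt
SPINT1, second start, chr15:40844447-40844476, plus strand: tgatCAGGTGtgtctcctcctctgtcccct
The match lay 41 to 36 bases before the start in RAB25 and 26 to 21 bases before the second start in SPINT1. No match was present in the 250 bases before the GRHL1 start or the first SPINT1 start. Of 35116 promoter windows of 250 bases, 17.5% held CACCTG or CAGGTG, so a match is common. The palindrome AACCGGTT, the core that GRHL factors bind, was present in 0.117% of windows, and AACNGGTT, which contains it, in 0.789%. Neither was found in the 250 bases before the RAB25, GRHL1 and first SPINT1 starts. Before the second SPINT1 start only 30 bases were searched, without a match to either. The shares for windows of 250 bases do not apply to that shorter stretch. EPCAM, GRHL2, OVOL1, ESRP2, ST14 and SPINT2 are named only.

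The arrays were checked against the labels first. SOX2, a core pluripotency factor, stood at a log2 RMA signal of 11.44 and 11.47 on the hESC arrays, 5.63 and 5.81 on the INM arrays and 5.76 and 5.61 on the SMC arrays. ISL1 stood at 5.54 and 5.28 in hESC, then 9.46 and 9.55 in INM, and 6.41 and 6.31 in SMC, highest in the group labelled positive for it. Smooth muscle actin, ACTA2, rose from 6.44 and 6.41 in hESC to 11.97 and 10.85 in INM and 13.09 and 13.03 in SMC. MYH11, the myosin heavy chain of mature smooth muscle, was called in none of the 3 comparisons between groups, with changes of 0.13, -0.25 and -0.13 from hESC to INM, from INM to SMC and from hESC to SMC. The INM arrays were the least alike: their values correlated at 0.975 across genes against 0.994 in hESC and 0.995 in SMC. Between the INM arrays 700 genes stood over 1 log2 unit apart, against 16 in hESC and 11 in SMC.

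From hESC to SMC, 8 of the 9 epithelial genes fell and none rose, by between 0.82 and 4.54 on the log2 scale. The exception was OVOL1, which did not pass the test. All 9 genes had both SMC arrays below both hESC arrays and both INM arrays. Calls here are limma tests with an adjusted p under 0.05, and over all genes 17.6% were called lower and 19.7% higher in this comparison. The median change of the 9 genes was -2.21, against -0.05 over all genes. The deposited signals were not rescaled here. Median centring of each array shifted the median of all genes by 0.19 from hESC to INM, -0.05 from INM to SMC and 0.13 from hESC to SMC. No change of the 9 genes turned direction under that centring or under quantile normalization. The share of calls that were higher from hESC to SMC was 52.9%, with 66.5% after centring and 58.3% after quantile normalization.

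The fall was divided unevenly around day 4. From hESC to INM only ST14 was called lower and none was called higher, where 14.8% of all genes were called lower and 18.9% higher. At an unadjusted p under 0.05, limma gave 2 lower and 0 higher of the 9. From INM to SMC, 7 of the 9 fell and none rose, where 11.1% of all genes were called lower and 9.94% higher. At an unadjusted p under 0.05 the count was 9 lower and 0 higher. The genes not called in the later step were OVOL1 and ST14. The median change of the 9 was -0.41 in the first step and -1.71 in the second, against -0.03 and -0.02 over all genes. In the first step 56.1% of all calls were higher, with 76.2% after centring and 66.1% after quantile normalization. After quantile normalization 3 of the 9 were called in that step, with GRHL1 higher at 0.71 (adjusted p = 0.0474) and SPINT1 lower at -0.49 (adjusted p = 0.0462) beside ST14. A fit without 1 array leaves its group with a lone array, which is assumed to vary like the other groups. Without an INM array the spread is taken from the hESC and SMC arrays alone, whose pooled SD across genes was 0.149 and 0.132 against 0.313 in INM. Lower p-values in such fits therefore carry no information on the spread of INM. Without INM replicate 1 the first step gave 6 calls and without INM replicate 2 it gave 5, of different genes apart from ST14 and OVOL1, which was called in opposite directions. The later step gave 4 calls without either SMC array, with GRHL1, RAB25 and ESRP2 lost.

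**Figure D1:**
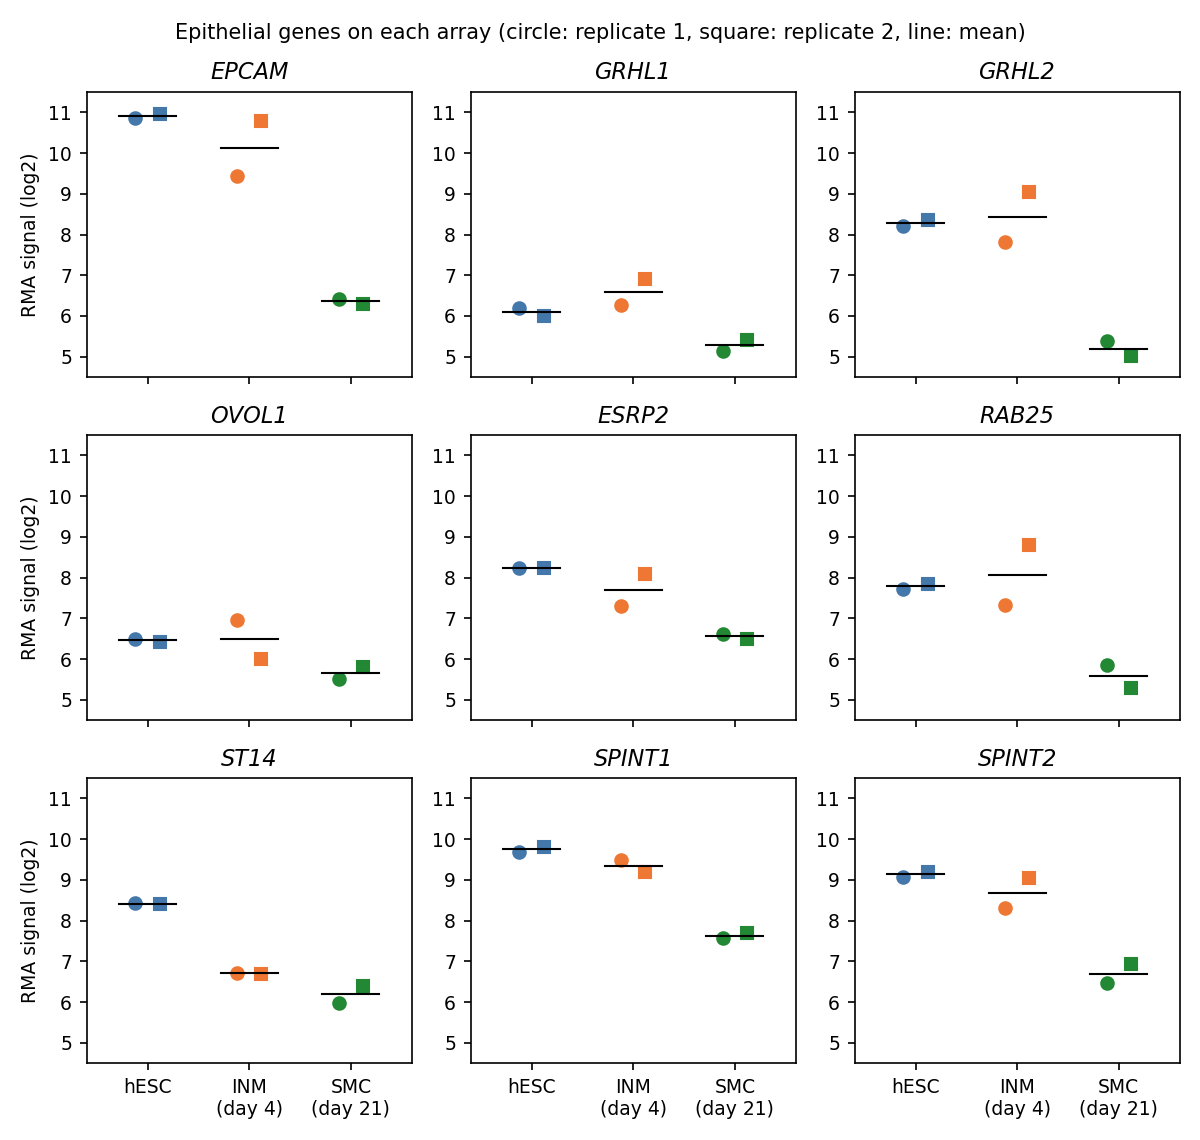
Log2 RMA signal of the 9 epithelial genes on each of the 6 arrays, by group, with circles for replicate 1, squares for replicate 2 and a line at the group mean. The SMC points lie below all other points in each panel, and the INM points of EPCAM, GRHL2 and RAB25 stand more than 1 apart.

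EPCAM, the adhesion protein of the group, stood at 57.9% of its hESC signal in INM and at 4.29% in SMC. Its log2 signal was 10.85 and 10.95 on the hESC arrays, 9.44 and 10.79 on the INM arrays, and 6.41 and 6.30 on the SMC arrays. Both INM arrays lay below the hESC arrays, 1 of them only narrowly, and both SMC arrays lay far below. The change to day 4 was -0.79 (SE 0.39, adjusted p = 0.166). From INM to SMC EPCAM fell by 3.76 on the log2 scale (SE 0.39, adjusted p = 0.00147), a 13.5-fold drop in RMA signal. Over the whole course it fell by 4.54 (SE 0.39, adjusted p = 0.000292), or 23.3-fold. These percentages compare group means of the log2 signal turned back to the linear scale. A second EPCAM probe set gave 10.87 and 10.86 in hESC, then 9.51 and 10.97 in INM, and 6.57 and 5.64 in SMC. It also put the SMC arrays far below the others, but its second INM array lay above both hESC arrays. In bulk RNA, fewer cells of a type and less RNA per cell cannot be told apart. Without INM replicate 2 the change to day 4 was -1.47 (adjusted p = 0.000101), from 1 INM array and the spread of the other groups, and without INM replicate 1 it was -0.11 (adjusted p = 0.512). Both later calls held in each fit that left out 1 array.

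GRHL2, a Grainyhead-like activator of epithelial genes including CDH1 and RAB25, did not pass the test at day 4 and was low at day 21. Its signal was 8.21 and 8.36 in hESC, then 7.83 and 9.05 in INM, and 5.39 and 5.01 in SMC. The INM arrays lay on either side of the hESC arrays. The change to day 4 was 0.15 (SE 0.37, adjusted p = 0.781). From INM to SMC it fell by 3.24 (adjusted p = 0.00213), or 9.43-fold, and from hESC to SMC it fell by 3.09 (adjusted p = 0.0011), or 8.49-fold. The change to day 4 turned direction with the INM array left out: it was 0.76 without replicate 1 (adjusted p = 0.011) and -0.46 without replicate 2 (adjusted p = 0.0722). Both calls against SMC held in each fit that left out 1 array. The median of unnamed probe sets was 5.34 and 5.31 on the SMC arrays, which puts GRHL2 about at the level of probe sets with no gene name there. No measure of signal over background was at hand, and a fold change of a gene near that level is compressed.

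GRHL1, a second Grainyhead-like factor, had its highest arrays in INM. Its signal was 6.20 and 6.004 in hESC, then 6.28 and 6.91 in INM, and 5.15 and 5.41 in SMC. Both INM arrays lay above both hESC arrays, and the difference of 0.49 (SE 0.22) had an adjusted p of 0.135. GRHL1 fell by 1.31 from INM to SMC (adjusted p = 0.00891) and by 0.82 from hESC to SMC (adjusted p = 0.0277), with the SMC arrays again near the level of unnamed probe sets. The later step was lost without SMC replicate 1 (-1.18, adjusted p = 0.0834) or SMC replicate 2 (-1.44, adjusted p = 0.0552). The whole course was lost without hESC replicate 1 (-0.72, adjusted p = 0.153), hESC replicate 2 (-0.92, adjusted p = 0.086), SMC replicate 1 (-0.69, adjusted p = 0.162) or SMC replicate 2 (-0.95, adjusted p = 0.0788). It was also lost after centring (-0.69, adjusted p = 0.0558) and after quantile normalization (-0.66, adjusted p = 0.0553). Without INM replicate 1 the change to day 4 was called at 0.81 (adjusted p = 0.00534).

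OVOL1, a zinc finger repressor of mesenchymal genes, was called in no comparison on all 6 arrays. Its signal was 6.48 and 6.43 in hESC, then 6.96 and 6.01 in INM, and 5.51 and 5.80 in SMC. The INM arrays again lay on either side of the hESC arrays, here with replicate 1 the higher. The changes were 0.03 to day 4 (SE 0.30, adjusted p = 0.944), -0.83 from INM to SMC (adjusted p = 0.0956) and -0.80 from hESC to SMC (adjusted p = 0.0752). The change to day 4 turned direction with the array left out, and was called both ways, at 0.51 without INM replicate 2 (adjusted p = 0.0309) and -0.45 without INM replicate 1 (adjusted p = 0.0493). Without either INM array the change from hESC to SMC stayed at -0.80 and was called (adjusted p = 0.00115), since the INM spread then left the fit. Without INM replicate 2 the fall from INM to SMC was called at -1.31 (adjusted p = 0.000674).

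ESRP2 encodes an RNA-binding protein that sets epithelial splicing patterns. Its signal was 8.23 and 8.24 in hESC, then 7.31 and 8.08 in INM, and 6.62 and 6.49 in SMC. The INM arrays lay between the other groups without overlap. The change to day 4 was -0.54 (SE 0.24, adjusted p = 0.133). ESRP2 fell by 1.14 from INM to SMC (adjusted p = 0.0199), or 2.20-fold, and by 1.68 from hESC to SMC (adjusted p = 0.00232), or 3.20-fold. Without INM replicate 2 the change to day 4 was called at -0.93 (adjusted p = 0.000892). The later step was lost without either hESC array (-1.14, adjusted p = 0.0562), without SMC replicate 1 (-1.20, adjusted p = 0.106) and without SMC replicate 2 (-1.07, adjusted p = 0.137). Its partner ESRP1 had no probe set of its own among those used and was not analysed here.

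RAB25, a small GTPase of the RAB11 family that recycles membrane proteins to the surface of epithelial cells, had its INM arrays furthest apart of the 9 genes. Its signal was 7.72 and 7.85 in hESC, then 7.34 and 8.80 in INM, and 5.85 and 5.29 in SMC. The INM arrays lay on either side of the hESC arrays, with replicate 1 at -1.46 relative to replicate 2. The change to day 4 was 0.29 (SE 0.45, adjusted p = 0.655). It turned direction with the INM array left out, at 1.02 without replicate 1 (adjusted p = 0.00802) and -0.45 without replicate 2 (adjusted p = 0.144). RAB25 fell by 2.50 from INM to SMC (adjusted p = 0.0108), or 5.65-fold, and by 2.21 from hESC to SMC (adjusted p = 0.00904), or 4.64-fold. On SMC replicate 2 its signal of 5.29 was about at the median of unnamed probe sets (5.31), so these fold changes may be compressed. The later step was lost without SMC replicate 1 (-2.78, adjusted p = 0.0566) or SMC replicate 2 (-2.22, adjusted p = 0.097). The whole course was lost without hESC replicate 1 (-2.27, adjusted p = 0.0581), hESC replicate 2 (-2.15, adjusted p = 0.0647) or SMC replicate 2 (-1.93, adjusted p = 0.0733).

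ST14 was the early gene of the group. Its signal was 8.43 and 8.40 in hESC, then 6.72 and 6.69 in INM, and 5.98 and 6.39 in SMC. The INM arrays were nearly equal and far below the hESC arrays. ST14 fell by 1.71 to day 4 (SE 0.15, adjusted p = 0.000535), a 3.27-fold drop that was called in each of the 6 fits that left out 1 array. The further change from INM to SMC was -0.52 (adjusted p = 0.0571), which was called after centring (-0.57, adjusted p = 0.0402) and after quantile normalization (-0.56, adjusted p = 0.0428). Over the whole course ST14 fell by 2.23 (adjusted p = 0.000121), or 4.69-fold.

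Both matriptase inhibitors were called lower after day 4 and not before it. SPINT1 stood at 9.70 and 9.81 in hESC, then 9.50 and 9.18 in INM, and 7.58 and 7.69 in SMC. SPINT2 stood at 9.08 and 9.19 in hESC, then 8.31 and 9.06 in INM, and 6.47 and 6.93 in SMC. For both genes the INM arrays lay below the hESC arrays and well above the SMC arrays. The changes to day 4 were -0.41 for SPINT1 (SE 0.14, adjusted p = 0.0681) and -0.45 for SPINT2 (SE 0.27, adjusted p = 0.235). SPINT1 was called in that step without INM replicate 1 (-0.57, adjusted p = 0.0104), and SPINT2 without INM replicate 2 (-0.83, adjusted p = 0.0113). From INM to SMC SPINT1 fell by 1.71 (adjusted p = 0.000654), or 3.27-fold, and SPINT2 by 1.98 (adjusted p = 0.00385), or 3.95-fold. From hESC to SMC they fell by 2.12 (adjusted p = 0.000111) and 2.44 (adjusted p = 0.000765). These later calls held in each fit that left out 1 array.

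**Figure D2:**
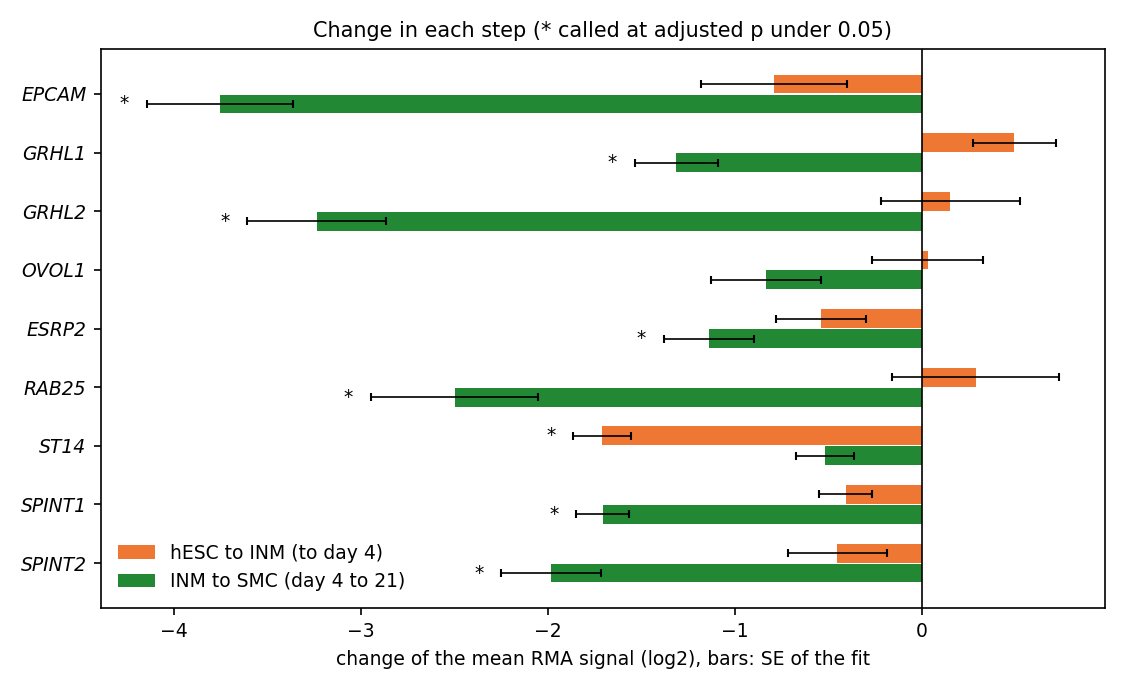
Change of the mean log2 RMA signal of the 9 genes from hESC to INM and from INM to SMC, with the standard error of the fit as whiskers and a star where the change was called at an adjusted p under 0.05. ST14 has the only star in the first step, and 7 genes have a star in the second.

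Timing was tested directly by setting the INM mean against the midpoint of the hESC and SMC means. For a gene that falls, a value above 0 means that more of the fall came after day 4 than before it. EPCAM gave 1.48 (SE 0.34, adjusted p = 0.0233), GRHL2 1.69 (adjusted p = 0.0127), RAB25 1.39 (adjusted p = 0.0435), GRHL1 0.90 (adjusted p = 0.0189) and SPINT1 0.65 (adjusted p = 0.0128). These 5 genes lay above the midpoint at day 4. ST14 lay below it, at -0.60 (SE 0.13, adjusted p = 0.0218). SPINT2 at 0.77 (adjusted p = 0.0555), OVOL1 at 0.43 (adjusted p = 0.266) and ESRP2 at 0.30 (adjusted p = 0.343) were not called. OVOL1 turned to -0.05 without INM replicate 1 (adjusted p = 0.832) and ESRP2 to -0.09 without INM replicate 2 (adjusted p = 0.599). Over all genes, 13.8% were called above the midpoint and 10.3% below it. Of those calls 57.2% were above, with 75.2% after centring and 66.1% after quantile normalization. The values stayed on their side of 0 under both scalings. The calls themselves rested on each hESC and SMC array: without hESC replicate 1 or SMC replicate 2, 0 of the 9 were called, and without hESC replicate 2 or SMC replicate 1, 2 were. GRHL2 was called in both fits with 2 calls, with SPINT1 without hESC replicate 2 and with ST14 without SMC replicate 1. Without INM replicate 1, 8 of the 9 were called, and without INM replicate 2, 7 were, in fits where the lone INM array adds no spread of its own.

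The same timing can be read as the share of the log2 fall from hESC to SMC that had been reached at day 4. For EPCAM it was 32.3% on INM replicate 1, 2.48% on replicate 2 and 17.4% from their mean. SPINT2 was alike, with 34.0% and 3.18%. SPINT1 had reached 11.9% and 26.8%, and ESRP2 55.4% and 8.97%. ST14 had reached 76.1% and 77.3%, the highest share of the 9 on both arrays and the closest pair. GRHL2 gave 14.9% and -24.7%, RAB25 20.2% and -46.1%, and GRHL1 -21.5% and -98.5%, where a negative share means a signal above the hESC mean. OVOL1 gave -63.3% and 55.7%, which with GRHL1 rests on a whole fall of less than 1 log2 unit. The median share of the 9 genes was 17.4%. Among the 3234 genes called lower from hESC to SMC the median share was 64.6%, with the middle 50% from 29.4% to 95.5%. On INM replicate 1 these medians were 20.2% and 71.2%, and on replicate 2 they were 3.18% and 60.0%. The 3234 genes were not filtered for low signal. The median of unnamed probe sets was 5.62 and 5.65 on the hESC arrays, 5.11 and 5.04 in INM, and 5.34 and 5.31 in SMC. It was thus lowest at day 4, which can raise the share of a gene near that level. The part of this in the median of 64.6% was not tested.

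**Figure D3:**
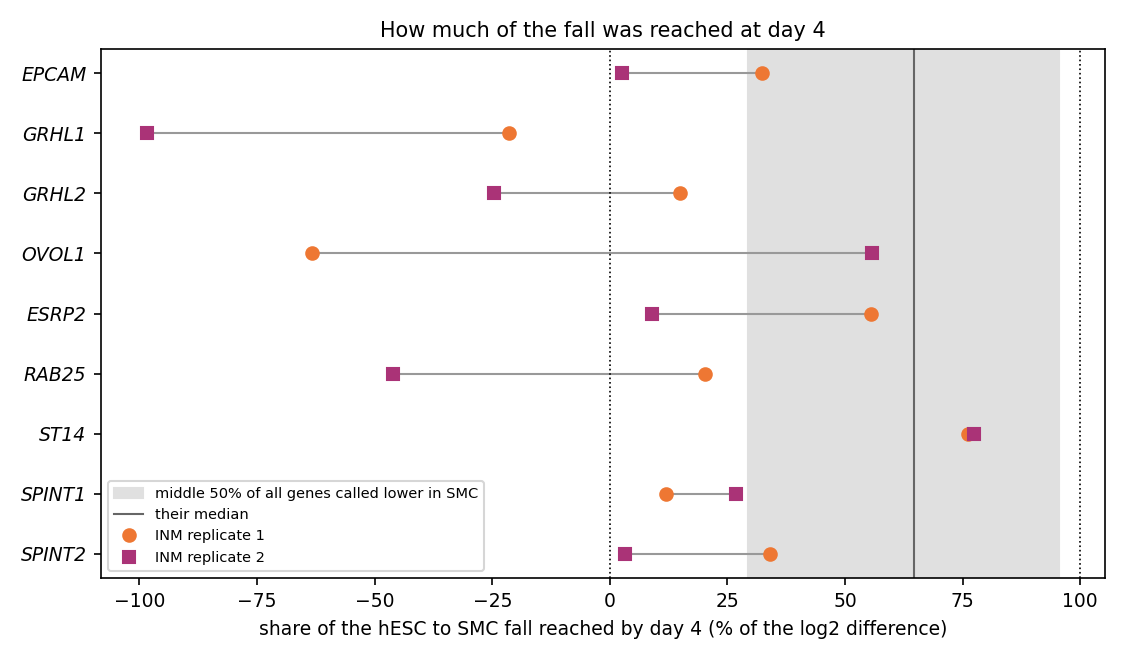
Share of each gene's log2 fall from hESC to SMC that was reached at day 4, for INM replicate 1 (circles) and INM replicate 2 (squares), with a grey band for the middle 50% of the 3234 genes called lower in SMC than in hESC and a line at their median. ST14 alone lies to the right of the line on both arrays. Inside the band but left of the line lie EPCAM, ESRP2 and SPINT2 on replicate 1 and OVOL1 on replicate 2.

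The INM arrays stood far apart on some of these genes. EPCAM, GRHL2 and RAB25 differed by more than 1 between them, which is 33.3% of the 9 genes against 3.80% of all genes. INM replicate 1 minus replicate 2 was -1.35 for EPCAM, -1.22 for GRHL2, -0.78 for ESRP2, -0.75 for SPINT2 and -0.63 for GRHL1. It was 0.96 for OVOL1, 0.32 for SPINT1 and 0.03 for ST14. Replicate 2 was thus the higher array for 6 of the 9. Over all genes replicate 2 was the higher array for 9438 of 18417. Markers of several cell types differed between these arrays. The mean signal of 8 pluripotency markers was 7.84 on INM replicate 1 and 8.02 on replicate 2. It was 10.93 and 10.98 in hESC and 6.31 and 6.36 in SMC. Of the 8, 5 were higher on replicate 2, and LIN28A among them stood at 10.39 on replicate 1 and 11.76 on replicate 2. The difference of these INM means thus rests largely on LIN28A. Of 13 trophoblast and amnion markers, 9 were higher on replicate 1, with a mean of 8.18 against 7.82. Of 8 endoderm markers, 7 were higher on replicate 2, with a mean of 6.33 on replicate 1 and 6.95 on replicate 2. Of 11 mesoderm markers, 9 were higher on replicate 2, with means of 8.75 and 9.22. Of 10 fibroblast markers, 7 were higher on replicate 1, with means of 8.97 and 8.56. Surface ectoderm markers were higher on replicate 1 for 6 of 9, with means of 7.998 and 7.93. Smooth muscle markers were higher on replicate 2 for 6 of 10, but their mean was higher on replicate 1, at 8.73 against 8.61. The part of any of these in the array difference was not tested.

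CDH1, which encodes E-cadherin, had the profile nearest to that of EPCAM. Nearness was the Euclidean distance over the 6 arrays after each gene was centred on its own mean. The 6 nearest of 18416 genes were CDH1 at 0.470, the junction receptor gene CXADR at 0.645, TC2N at 1.06, the claudin gene CLDN6 at 1.06, the membrane protease gene PRSS8 at 1.26 and the pluripotency gene LIN28A at 1.29. Of the other 8 epithelial genes GRHL2 ranked 12, SPINT2 52, RAB25 53, SPINT1 132, ESRP2 205, ST14 355, GRHL1 701 and OVOL1 1726. CDH1 stood at 10.96 and 11.02 in hESC, then 9.98 and 11.28 in INM, and 6.51 and 6.55 in SMC. The values of all 6 arrays entered the choice of these 6 genes, so their likeness to EPCAM in either step is no separate finding. CDH1 changed by -0.36 to day 4 (adjusted p = 0.494) and fell by 4.10 from INM to SMC (adjusted p = 0.00093). PRSS8, an activator of epithelial sodium channels, changed by -0.53 to day 4 (adjusted p = 0.155) and then fell by 2.89 (adjusted p = 0.00079). LIN28A changed by -1.02 (adjusted p = 0.095) and then fell by 4.74 (adjusted p = 0.000662).

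The lists that follow are read against all genes, of which 14.8% were lower and 18.9% higher from hESC to INM, 11.1% and 9.94% from INM to SMC, and 17.6% and 19.7% from hESC to SMC. The medians over all genes in these comparisons were -0.03, -0.02 and -0.05. Some named genes had a group mean below the median of unnamed probe sets on that group's arrays and are not shown to be above background there. In hESC these were LEF1, ZEB1, ZEB2, HGF, PRDM1, TFAP2A, ISL1, GATA3 and VTCN1, and in SMC they were MARVELD2, TFAP2C, TC2N and VTCN1 besides GRHL1 and GRHL2. A change given for them is a difference of measured signals and not a measured size of the change.

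Junction and polarity genes mostly fell after day 4. Of 26 measured, 7 were lower and 7 higher in INM than in hESC, whereas 17 were lower and none higher in SMC than in INM. From hESC to SMC, 18 were lower and 1 higher, the plakoglobin gene JUP at 0.86, a call lost without any 1 of the hESC and SMC arrays. By limma at an unadjusted p under 0.05, 21 were lower and 0 higher from INM to SMC. That is 65.4% of the list lower in the later step and 69.2% over the whole course. Their median changes were -0.06, -1.20 and -1.04. CDH3, encoding P-cadherin, stood at 11.31 and 11.38 in hESC, then 11.44 and 11.43 in INM, and 8.29 and 8.22 in SMC, and fell by 3.18 in the later step (adjusted p = 5.34e-05). The measured signal of the tricellular junction gene MARVELD2 fell by 2.95, to an SMC mean of 4.98 that is not shown to be above background. The later fall was also called for other junction genes, of which the desmocollin gene DSC2 fell by 3.36 after a rise of 1.12, and the polarity gene PATJ fell by 2.73. The desmosome gene DSP rose by 1.86 to day 4 and then fell by 1.64. LSR, another tricellular junction gene, already fell by 1.30 to day 4. The list's later count went down to 10 without SMC replicate 2 and up to 21 without INM replicate 1. Its count of lower genes at day 4 went down to 2 without either hESC array, and to 3 after centring.

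Other epithelial transcription and splicing regulators were mixed at day 4. Of 15 measured, 2 were lower and 5 higher in INM than in hESC, 5 were lower and 0 higher in SMC than in INM, and 4 were lower and 2 higher in SMC than in hESC. By limma at an unadjusted p under 0.05 the later step had 6 lower and 0 higher. The lower genes were 13.3%, 33.3% and 26.7% of the list and the higher genes 33.3%, 0% and 13.3%, and the median changes were 0.13, -0.37 and -0.20. The AP-2 factor TFAP2A rose from 5.71 and 5.30 in hESC to 11.49 and 10.27 in INM and stood at 8.12 and 8.19 in SMC. The measured signal of TFAP2C fell by 2.68 from INM to SMC (adjusted p = 0.000224), to a mean of 5.01, below the unnamed probe sets. GRHL3, the other Grainyhead-like gene, rose by 0.72 to day 4 (adjusted p = 0.0318), a call lost without INM replicate 2 or either hESC array, and fell by 1.22 from INM to SMC (adjusted p = 0.00756). The splicing regulator RBM47 fell by 0.93 to day 4, fell by 1.28 after it and fell by 2.21 over the whole course (adjusted p = 0.000205). TFCP2L1 was lower in all 3 comparisons. The other genes higher at day 4 were PRDM1, KLF5 and TFAP2C, the last at 0.79 (adjusted p = 0.0139). OVOL2, a relative of OVOL1, fell by 0.72 over the whole course (adjusted p = 0.0116). Without hESC replicate 1 the day 4 counts were 0 lower and 1 higher, and without INM replicate 2, 5 genes were lower. From hESC to SMC, 1 gene was higher without any 1 of the hESC and SMC arrays.

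Factors that repress epithelial genes rose by day 4, a step in which ST14 was called lower and EPCAM and GRHL2 were not called. The INM arrays of EPCAM and GRHL2 stood far apart, so the lack of a call does not show that these genes were unchanged. Of 12 measured, 7 were higher and none lower in INM than in hESC by limma, and by unadjusted p under 0.05 the counts were also 7 and 0. That is 58.3% of the list, and the median change was 1.36. SNAI2 stood at 6.95 and 7.12 in hESC, then 12.40 and 12.64 in INM, and 12.83 and 12.83 in SMC, a rise of 5.48 to day 4 (adjusted p = 7.32e-06). ZEB2 rose by 4.79, PRRX1 by 4.64, ZEB1 by 2.74 and SNAI1 by 2.23, and each was called in every fit that left out 1 array. SNAI1 then fell by 1.79, KLF8, another zinc finger gene, fell by 1.38, and TCF4 fell by 0.60. From INM to SMC 3 of the 12 were lower and 1 higher, with a median of -0.06. The higher gene was ZEB1, at 1.64 (adjusted p = 0.0286), and the count went to 0 without any 1 of the hESC and SMC arrays and to 2 without INM replicate 2. From hESC to SMC SNAI2, ZEB1, ZEB2, TWIST1 and PRRX1 were higher and KLF8 was lower, with a median of 0.28.

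**Figure D4:**
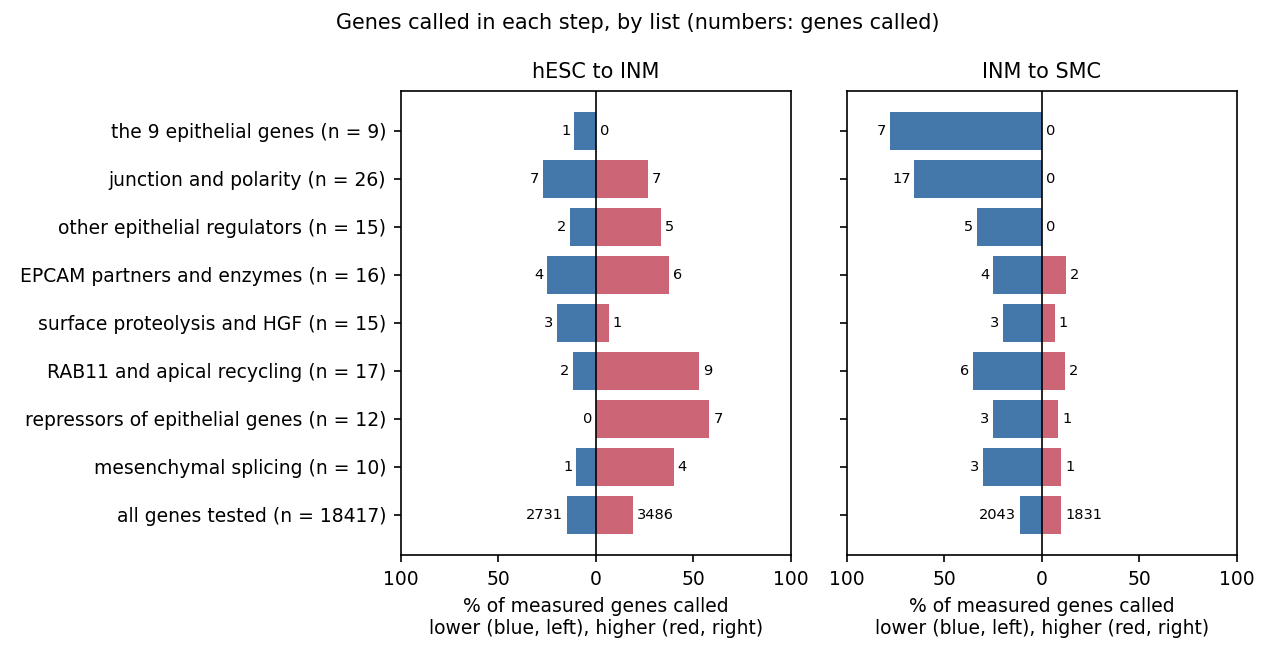
Percent of the measured genes of each list called lower (blue, to the left) or higher (red, to the right) from hESC to INM and from INM to SMC, with the number of genes called beside each bar. The 9 epithelial genes and the 26 junction genes lie mostly to the left in the second step, and the 12 repressors lie to the right in the first.

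EPCAM's partners and the proteases that cut it were mixed. Of 16 measured, 4 were lower and 6 higher in INM than in hESC, 4 lower and 2 higher in SMC than in INM, and 3 lower and 6 higher in SMC than in hESC, with medians of 0.09, 0.11 and 0.22. The lower genes were 25.0%, 25.0% and 18.8% of the list and the higher genes 37.5%, 12.5% and 37.5%. CLDN7, the claudin that binds EPCAM, stood at 10.92 and 10.94 in hESC, then 9.45 and 9.50 in INM, and 7.01 and 6.83 in SMC. It fell by 1.46 to day 4 (adjusted p = 0.000342) and fell by 2.56 after it (adjusted p = 8.81e-05). The tetraspanin gene CD9 fell by 0.61 to day 4 (adjusted p = 0.0329) and by 1.51 from INM to SMC. LEF1, a partner of beta-catenin, rose by 5.24 to day 4, and the secretase gene BACE1 rose by 1.88. BACE2 rose by 1.29 from INM to SMC. The other genes behind the lower counts were PSEN2 and APH1A to day 4, ADAM17 and CTNNB1 after it, and PSEN2 over the whole course. APH1A was also higher after day 4. ADAM17 and CTNNB1 had been called higher at day 4, each at 0.75, and changed by 0.05 and -0.03 from hESC to SMC. The count of lower genes at day 4 went to 1 without hESC replicate 1 and to 2 after centring. In the later step the lower count was 2 without SMC replicate 2. The higher count there was 1 without either SMC array and 4 without INM replicate 1.

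Genes of surface proteolysis and the HGF pathway, whose ligand is activated by proteases of the matriptase kind, held calls in both directions. Of 15 measured, 3 were lower and 1 higher in INM than in hESC, 3 lower and 1 higher in SMC than in INM, and 5 lower and 2 higher in SMC than in hESC, with medians of -0.33, -0.14 and -0.08. The lower genes were 20.0%, 20.0% and 33.3% of the list, and the higher genes 6.67%, 6.67% and 13.3%. The sodium channel subunit gene SCNN1A fell by 2.78 to day 4 (adjusted p = 0.00143), early like ST14. MET, the HGF receptor, fell by 1.11 (adjusted p = 0.00353) and then by 1.27 (adjusted p = 0.00345). HGF itself was the gene higher at day 4, at 3.39 (SE 0.96), but its INM arrays stood far apart, at 6.13 and 9.50. It stood at 4.82 and 4.03 in hESC and at 9.67 and 9.57 in SMC. CDCP1 was lower in all 3 comparisons. The urokinase receptor gene PLAUR rose by 2.32 from INM to SMC (adjusted p = 0.000965). Without INM replicate 2 the lower count at day 4 was 7 and the higher count was 3 in either step, and the higher count at day 4 was 0 without any 1 of the hESC and SMC arrays. In the later step, 5 genes were lower without INM replicate 1. The higher count from hESC to SMC was 1 without hESC replicate 2.

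The RAB11 and apical recycling list, to which the RAB25 pathway belongs, had more genes higher than lower at day 4. Of 17 measured, 2 were lower and 9 higher in INM than in hESC, 6 lower and 2 higher in SMC than in INM, and 5 lower and 6 higher in SMC than in hESC, with medians of 0.47, -0.32 and 0.10. The lower genes were 11.8%, 35.3% and 29.4% of the list and the higher genes 52.9%, 11.8% and 35.3%. The motor gene MYO5B stood at 6.86 and 6.86 in hESC, then 8.94 and 8.07 in INM, and 5.56 and 5.71 in SMC. It rose by 1.64 (adjusted p = 0.00478) and fell by 2.87 (adjusted p = 0.000965). RAB11B rose by 0.83 to day 4, whereas RAB17, another epithelial RAB, fell by 1.64 and RAB3IP fell by 1.11. After day 4 the higher genes were MYO5A and SYTL4. The higher count at day 4 was 2 without hESC replicate 1 and 5 with only the arrays of the groups compared. The lower count of the later step was 2 without SMC replicate 1, and its higher count was 0 without either SMC array. From hESC to SMC, 3 were lower without any 1 of the hESC and SMC arrays, and 2 were higher without SMC replicate 2.

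Splicing factors of mesenchymal cells gave 1 lower and 4 higher of 10 in INM against hESC, 3 lower and 1 higher in SMC against INM, and 3 lower and 3 higher in SMC against hESC, with medians of 0.19, -0.40 and -0.24. The lower genes were 10%, 30% and 30% of the list and the higher genes 40%, 10% and 30%, so the lower share at day 4 and the higher share after it were close to those of all genes. MBNL2 rose by 3.17 to day 4 (adjusted p = 8.28e-05) and RBFOX2 by 0.80 (adjusted p = 0.00244). QKI and MBNL1 were the other genes higher at day 4, and CELF2 was the lower one. MBNL1 rose by 1.09 from INM to SMC (adjusted p = 0.00315), where CELF1, PTBP1 and HNRNPM fell. The lower calls moved with the arrays used: without SMC replicate 2 there were 0 in the later step and 1 over the whole course, and without INM replicate 1 there were 5 in each. At day 4 the higher count was 2 without hESC replicate 1. The lower count there was 2 without INM replicate 2, and 0 without any 1 of the hESC and SMC arrays.

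Among markers of other epithelia, those of trophoblast and amnion moved most at day 4, surface ectoderm less, and no endoderm marker was called. Of 13 trophoblast and amnion markers, 9 rose and none fell from hESC to INM, and 8 fell and 1 rose from INM to SMC, the rise being lost without either SMC array. Their mean signal was 5.78 and 5.69 in hESC, then 8.18 and 7.82 in INM, and 6.37 and 6.40 in SMC. GATA3 rose by 3.92 and then fell by 2.69. VTCN1, an immune checkpoint gene expressed in amnion and trophoblast, stood at 5.49 and 5.37 in hESC, then 7.78 and 9.28 in INM, and 5.25 and 5.13 in SMC. ISL1, TFAP2A and TFAP2C are on this list too, ISL1 is the marker that names the INM group, and TFAP2A is also on the surface ectoderm list. Of 9 surface ectoderm markers, 3 rose to day 4 and 3 fell after it (5 without INM replicate 1), with a mean of 6.82 and 6.78 in hESC, then 7.998 and 7.93 in INM, and 7.16 and 7.19 in SMC. Of 8 endoderm markers none was called by limma in any of the 3 comparisons, with 0 at an unadjusted p under 0.05 to day 4 and 1 higher in each of the other comparisons. Their mean was 6.61 and 6.39 in hESC, then 6.33 and 6.95 in INM, and 6.63 and 6.63 in SMC. Of 8 pluripotency markers, 7 fell to day 4, 4 fell after it and 8 fell over the whole course. The part of these markers in the epithelial signal at day 4 was not tested.

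Markers of mesoderm, smooth muscle and fibroblasts mostly rose over the whole course. Of 11 mesoderm markers, 9 rose and 1 fell from hESC to INM, 2 rose and 4 fell from INM to SMC, and 8 rose and 3 fell over the whole course. HAND1, a factor of lateral mesoderm that amnion also expresses, rose by 6.27 to day 4. Of 10 smooth muscle markers, 6 rose to day 4, 3 rose and 1 fell after it, and 8 rose over the whole course. Without any 1 of the hESC and SMC arrays, 4 smooth muscle markers rose over the whole course, and no mesoderm marker fell over it or to day 4, or rose from INM to SMC. Without either hESC array 5 mesoderm markers rose to day 4. Without either SMC array 1 smooth muscle marker rose after day 4. Of 10 fibroblast markers, 6 rose and 1 fell to day 4, 7 rose after it and 9 rose over the whole course.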

How the data were processed

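Total RNA of 6 WA09 samples was hybridised to Affymetrix expression arrays, 1 array per sample. The authors deposited log2 signals of 33297 probe sets. RMA and limma are named in the submitters' processing notes. The sources used here do not give RMA settings or a genome build. The log2 scale was read from the deposited values, which ran from 1.36 to 14.1, with array medians of 6.46 to 6.68.

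Of the probe sets 19460 carried 1 gene symbol, 1754 several and 12083 none. Names were updated through RefSeq's table for 19429, and 31 were kept. For 769 genes with several probe sets the highest mean was used. No gene was named from a probe set with several symbols. No rescaling or low-signal filter was applied.

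A limma 3.58.1 model (lmFit, then eBayes, R 4.3.3) took 1 mean per group over the 6 arrays and left 3 residual degrees of freedom beside 3.56 prior ones. Tests were two-sided, and p-values were Benjamini-Hochberg adjusted over 18417 genes. With 2 arrays against 2, the smallest p of an exact permutation test is 0.333. The number of arrays limits the precision, and SE is the standard error of the fit. The comparisons share arrays: the hESC arrays enter the first step and the whole course, the SMC arrays the second step and the whole course, and the INM arrays both steps. Scripts were tested on simulated data. Alternatives were other scalings, probe set means, a low-signal filter, other priors, the replicate number as a block and leaving out each array.

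Besides the 9 genes, named were called genes among the 4 largest changes of each list per comparison, the 6 nearest to EPCAM, and markers beside a result, 75 in all, not all described. Other genes behind a count of 5 or fewer were named after their values were seen. The genes, 7 lists and 7 marker lists were chosen with earlier results of these data known. A motif match required identical letters on either strand, and windows excluded bases after the start.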

Additional observations from a re-analysis of the deposited data

How the results depend on the processing

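For the 9 genes, no alternative that kept all arrays turned a direction. The first step gave 1 call, with 3 after quantile normalization and 1 to 6 when 1 array was left out. The second step gave 7 calls (4 to 8 when 1 array was left out), and the midpoint comparison 6 (0 to 8). When 1 array was left out, the change to day 4 turned direction for OVOL1 (-0.45 to 0.51), GRHL2 (-0.46 to 0.76) and RAB25 (-0.45 to 1.02). PRDM1 from INM to SMC ran from -0.92 to 0.91, and HGF against the midpoint from -0.90 to 2.48. ZEB2 from INM to SMC was 0.79 with the mean of all its probe sets (adjusted p = 0.0405), against -0.16. The causes were not tested beyond the arrays left out.

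With the replicate number as a block, 1, 7, 8 and 6 of the 9 were called in INM versus hESC, SMC versus INM, SMC versus hESC and the midpoint comparison. RAB25 lost its midpoint call (adjusted p = 0.0501) and SPINT2 gained one (adjusted p = 0.022). The labels do not say whether equal replicate numbers mark paired samples. Deviations correlated at 0.07 for hESC and INM, -0.12 for hESC and SMC and -0.07 for INM and SMC. Such values cannot show whether the samples were paired. A crossed pairing, added after the data were seen, gave 1, 7, 9 and 6 calls. RAB25 also lost its midpoint call with an intensity trend and robust prior (adjusted p = 0.0706). With only the arrays of the groups compared, ESRP2 lost its call from INM to SMC (adjusted p = 0.0562) and OVOL1 gained one from hESC to SMC (adjusted p = 0.00115).

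Over all genes the first step had 2731 lower and 3486 higher calls, with 1589 lower after centring. When 1 array was left out these counts ran from 1220 to 3491 and from 1719 to 4337. The second step had 2043 lower and 1831 higher, with 1289 lower with only the groups compared, and ran from 563 to 3515 and from 571 to 2628. The whole course had 3234 and 3625, and ran from 1649 to 4573 and from 2154 to 4627. The midpoint comparison had 1905 below and 2543 above, with 1232 below after centring, and ran from 804 to 2483 and from 1163 to 3751. Signal over background was not measured, which limits GRHL1, GRHL2, RAB25, MARVELD2, TFAP2C and TC2N in SMC and the genes named as low in hESC.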
